A study of Mus musculus with 7 samples.

Results

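The genes described here carry out or control glycolysis, gluconeogenesis and glycogen metabolism in mouse liver. They are 36 genes listed by name, of which 17 belong to glycolysis and the use of pyruvate, 11 to gluconeogenesis and 8 to glycogen. A gene was read from a probe set whose only annotated symbol is that gene, and from the brightest such probe set where there were several. By this rule 32 of the 36 were measured, among 19938 genes that the array reads in this way. Of the other 4, Gpi1, Pfkfb1 and Eno1 are not analysed here, and Gapdh stands only on 25 probe sets that carry several symbols.

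Liver RNA of 7 male C57BL/6 mice was hybridised to a whole-transcript array, with 1 array per mouse. The authors call the mice littermates, without saying which of them shared a litter. The 4 control mice were Trpm6 fl/+, so that each carried a floxed allele, and were 12 weeks (control 1 and 2) or 13 weeks (control 3 and 4) old. The 3 Trpm6-deficient mice were Trpm6 Δ17/Δ17;Sox2-Cre, aged 13 weeks (Trpm6-deficient 1 and 3) or 12 weeks (Trpm6-deficient 2). Trpm6 encodes a channel kinase that carries Mg2+, and the Sox2-Cre driver is active in the cells that form the embryo itself and spares the placenta and yolk sac, so the gene was lost in the whole body of the mouse and not in the liver alone. The tissue was taken from the left lobe, and neither the hour of collection nor the feeding state stands in the labels. All values are log2 expression as deposited, changes are Trpm6-deficient minus control on that scale, and the array medians lay between 6.43 and 6.48. The probe set of Trpm6, below every median, read 5.53, 5.51, 5.50 and 5.50 in controls 1 to 4 and 5.50, 5.37 and 5.50 in Trpm6-deficient 1 to 3 (adjusted p = 0.882 from limma), and where it lies relative to the deleted exon was not examined. Hepatocyte markers had a mean level of 13.3 to 13.6 in every liver, so the tissue reads as liver in both groups. In whole tissue, fewer cells of a type and less RNA per cell cannot be told apart.

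Liver takes up glucose after a meal, stores it as glycogen and breaks the surplus down to pyruvate by glycolysis, and between meals it releases glucose from glycogen and makes it anew from lactate, amino acids and glycerol. Opposed enzyme pairs set the direction of flow: phosphofructokinase against fructose bisphosphatase, pyruvate kinase against pyruvate carboxylase and phosphoenolpyruvate carboxykinase, and glycogen synthase against glycogen phosphorylase. Insulin, glucagon and the circadian clock act on many of these genes, and the enzymes need Mg2+ wherever ATP is the phosphate donor.

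Pdk4, a kinase that shuts off pyruvate dehydrogenase, and Ppargc1a, a coactivator of the fasted liver, were higher in all 3 Trpm6-deficient livers than in any control, by 2.88-fold and 1.92-fold on average. Pfkfb3, a regulator of phosphofructokinase, was lower in all 3 than in any control (change -0.69). Such a lack of overlap was seen for 5.33% of all probe sets, 2.94% with higher and 2.38% with lower Trpm6-deficient livers. Khk, which phosphorylates fructose, and Pfkl, the phosphofructokinase of liver, were higher by 0.37 and 0.14, with overlap. The enzymes that are particular to glucose production, Pcx, Pck1, Fbp1 and G6pc, and those of glycogen synthesis and breakdown, Gys2 and Pygl, changed by -0.16 to 0.09 and overlapped between the groups.

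A gene was called where limma gave it an adjusted p of 0.1 or less, and by this rule none of the 32 genes was called, against 46 of all 35556 probe sets (0.129%). A p of 0.05 or less before adjustment is named the nominal limit here. It was met by the 5 genes Pdk4, Ppargc1a, Khk, Pfkl and Pfkfb3, or 15.6% of the 32, beside 6.87% of all probe sets (3.85% higher and 3.03% lower). An equal-variance test of each gene alone, without limma's moderation, had 4 of the 32 at the nominal limit (5.26% of all probe sets) and none after adjustment (0.0226%). Changes of 0.5 or more in size were seen for 3 of the 32 genes, beside 4.14% of all probe sets. The median change of the 32 was 0.05, with 21 positive and 11 negative (50.3% of all probe sets were positive), and their median size of change was 0.09, beside 0.08 for all probe sets. Among the 19938 genes read in the same way as the 32, 7.01% met the nominal limit and 2.46% changed by 0.5 or more in size. Of these genes 47.5% were positive, and their median size of change was 0.07.

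**Figure D1:**
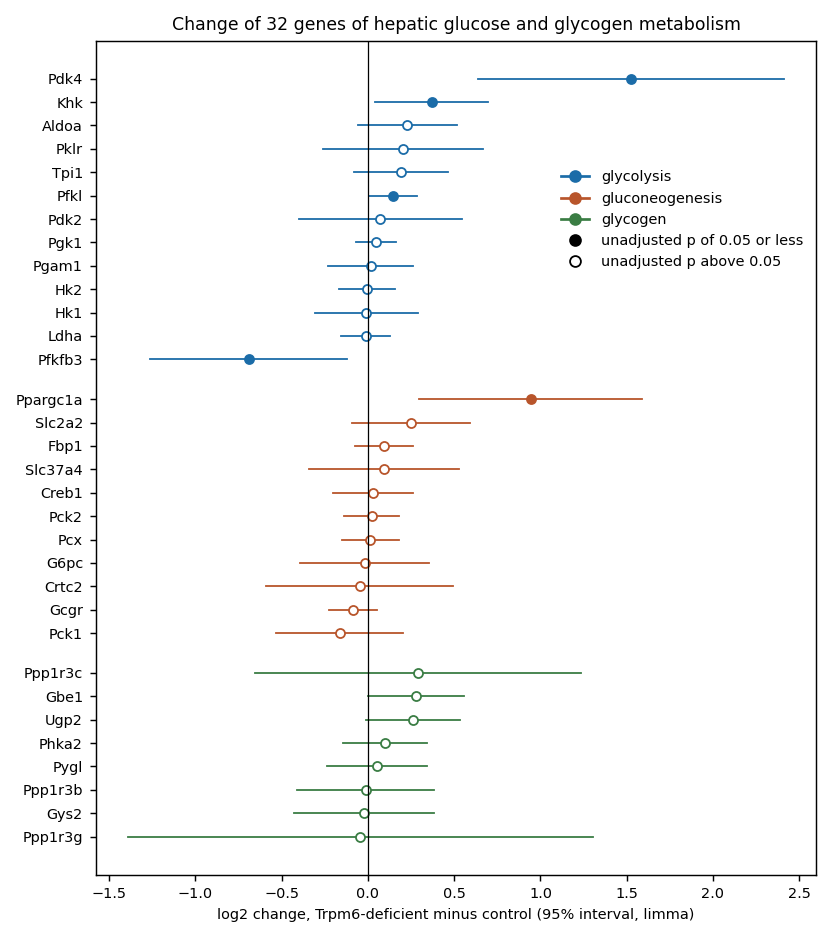
Log2 change of each of the 32 genes, Trpm6-deficient minus control (x axis), with the 95% interval from limma, grouped by pathway (4 control and 3 Trpm6-deficient livers). Filled points are the 5 genes with p of 0.05 or less before adjustment; Pdk4 and Ppargc1a lie highest, Pfkfb3 lowest, and most other genes lie close to 0.

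The promoter windows of the 3 genes whose groups did not overlap are shown because their transcripts had the largest changes of the set. Each window is RefSeq sequence (GRCm38.p6), 300 bases of which most lie before an annotated start, read 5′ to 3′ on the strand of the gene, which is the minus strand for all 4 windows. Capitals mark matches to a CRE half-site (TGACG or, on the other strand, CGTCA) or to an E-box (CACGTG). Another motif, the forkhead site TGTTTAC or, on the other strand, GTAAACA, was searched too. The CRE half-site is the core bound by CREB, through which glucagon acts, and the E-box is a core bound by clock proteins and by the carbohydrate response factor.
Ppargc1a, chr5:51567676-51567975: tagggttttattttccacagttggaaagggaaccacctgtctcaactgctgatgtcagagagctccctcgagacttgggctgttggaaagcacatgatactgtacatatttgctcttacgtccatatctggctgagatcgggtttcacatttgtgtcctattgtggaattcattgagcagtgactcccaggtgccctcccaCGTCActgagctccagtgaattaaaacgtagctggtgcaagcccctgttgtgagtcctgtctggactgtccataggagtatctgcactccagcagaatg
Pdk4, chr6:5496229-5496528: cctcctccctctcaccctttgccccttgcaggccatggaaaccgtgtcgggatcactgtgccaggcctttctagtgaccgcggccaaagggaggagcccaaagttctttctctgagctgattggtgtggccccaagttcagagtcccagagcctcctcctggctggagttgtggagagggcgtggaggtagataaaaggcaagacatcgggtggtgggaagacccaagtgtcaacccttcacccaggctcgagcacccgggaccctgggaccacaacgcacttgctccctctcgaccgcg
Pfkfb3, first window, chr2:11553880-11554179: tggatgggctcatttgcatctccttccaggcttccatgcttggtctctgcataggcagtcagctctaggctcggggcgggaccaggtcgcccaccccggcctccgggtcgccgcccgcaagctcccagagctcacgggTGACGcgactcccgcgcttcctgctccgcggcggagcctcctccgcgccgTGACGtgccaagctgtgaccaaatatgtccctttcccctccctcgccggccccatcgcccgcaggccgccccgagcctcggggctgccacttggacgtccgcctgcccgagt
Pfkfb3, second window, chr2:11502041-11502340: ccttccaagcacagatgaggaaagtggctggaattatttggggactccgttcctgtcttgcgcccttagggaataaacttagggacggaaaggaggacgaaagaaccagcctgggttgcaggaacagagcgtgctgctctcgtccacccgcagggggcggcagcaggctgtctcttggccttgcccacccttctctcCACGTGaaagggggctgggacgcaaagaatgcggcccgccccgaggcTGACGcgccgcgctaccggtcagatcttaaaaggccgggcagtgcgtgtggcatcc
The match of Ppargc1a begins 49 bases before the start. The first window of Pfkfb3 has CRE half-sites that begin 112 and 62 bases before the start, and the second window has an E-box 53 bases and a CRE half-site 6 bases before it. The window of Pdk4 holds none of the 3 motifs. A window was given for 33 of the 36 genes, and 10 of these 33 held a CRE half-site in at least 1 window, 6 an E-box and none a forkhead site. Counted by window, 13 of the 49 windows of these genes held a CRE half-site, 6 an E-box and none a forkhead site. Of all 32851 windows of this length 20.8% held a CRE half-site, 7.15% an E-box and 3.65% a forkhead site, and a gene with several windows has more chances of a match. These are matches of letters and not known sites of binding.

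Glycolysis begins with the phosphorylation of glucose and is controlled at phosphofructokinase. Among its kinases and their regulator 1 gene was lower and 2 were higher at the nominal limit, and none was called. Over the 13 measured genes of glycolysis and pyruvate use 4, or 30.8%, were at this limit, beside 6.87% of all probe sets. Pfkfb3 makes and breaks down fructose 2,6-bisphosphate, the activator of phosphofructokinase. It read 8.22, 8.41, 8.22 and 8.80 in controls 1 to 4 and 7.68, 7.30 and 8.18 in Trpm6-deficient 1 to 3. Every Trpm6-deficient liver lay below every control, Trpm6-deficient 3 by little. The mean was 8.41 ± 0.27 (SD, n = 4) for the controls and 7.72 ± 0.44 (SD, n = 3) for the Trpm6-deficient livers. The change was -0.69 (standard error 0.24, 95% interval -1.27 to -0.12, adjusted p = 0.650 from limma). Pfkl, the phosphofructokinase of liver, read 8.98, 8.97, 8.98 and 9.04 in controls 1 to 4 and 9.16, 9.03 and 9.22 in Trpm6-deficient 1 to 3. Its groups overlapped at control 4 and Trpm6-deficient 2, and the difference was small, 0.14 (standard error 0.06, 95% interval 0.01 to 0.28, adjusted p = 0.709 from limma). Khk, the ketohexokinase through which fructose enters the pathway below phosphofructokinase, read 11.76, 11.91, 11.89 and 11.58 in controls 1 to 4 and 12.29, 11.87 and 12.30 in Trpm6-deficient 1 to 3. Trpm6-deficient 1 and 3 lay above all controls and Trpm6-deficient 2 among them, with a change of 0.37 (standard error 0.14, 95% interval 0.04 to 0.70, adjusted p = 0.677 from limma).

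Pklr, the pyruvate kinase of liver, read 12.01, 12.33, 12.37 and 11.99 in controls 1 to 4 and 12.21, 12.12 and 12.80 in Trpm6-deficient 1 to 3. Trpm6-deficient 3 was the highest of the 7 livers and the other Trpm6-deficient livers lay within the range of the controls, for a change of 0.20 (95% interval -0.26 to 0.67, adjusted p = 0.886 from limma). Without Trpm6-deficient 3 the change of Pklr was -0.01. The remaining 8 genes of this pathway, Hk1, Hk2, Aldoa, Tpi1, Pgk1, Pgam1, Ldha and Pdk2, changed by -0.01 to 0.23, none of them at the nominal limit. Of these, Aldoa, the aldolase that is not particular to liver, changed most (0.23, 95% interval -0.06 to 0.52), followed by Tpi1, triose phosphate isomerase (0.19, 95% interval -0.08 to 0.47), and in both Trpm6-deficient 3 was the highest liver. Without Trpm6-deficient 3 the changes were 0.097 for Aldoa and 0.087 for Tpi1, and without Trpm6-deficient 1 that of Tpi1 was 0.32, at the nominal limit. Ldha, the lactate dehydrogenase subunit, lay between 13.13 and 13.32 in all 7 livers.

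Some of these readings are limited by the probe sets. The brightest Hk1 probe set followed, liver by liver, 16 probe sets that carry Hk1 together with the ribosomal protein gene Rpl17: its difference from the control mean was 0.12, 0.07, 0.02 and -0.20 in controls 1 to 4, and the mean of the 16 differed by 0.16, 0.04, 0.02 and -0.23. Another Hk1 probe set, taken from RefSeq annotation, read 6.64 in 5 of the 7 livers, 6.43 in control 1 and 7.01 in control 2, with a change of -0.04. The changes of both Hk1 probe sets are near 0, and neither was called. The brighter one read 12.44 to 12.88 over the 7 livers. In Trpm6-deficient 1 to 3 it differed from the control mean by 0.20, 0.02 and -0.24. The mean of the 16 differed there by 0.28, 0.02 and -0.24. The level of the brighter probe set can therefore not be read as that of Hk1 alone, and which of the 2 genes it reads was not tested. Of the 3 Pgk1 probe sets 2 hold identical values, as do 2 of the 3 of Pgam1, so they are not separate readings. Hk2 read 5.94 to 6.19, below the median of every array. The 25 probe sets that carry Gapdh with other symbols changed by 0.09 to 0.12, none of them at the nominal limit.

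Pyruvate dehydrogenase, which commits pyruvate to the citric acid cycle, is switched off by its kinases, and Pdk4, the kinase that rises in fasting liver, had the largest change of the set. Pdk4 read 8.89, 8.56, 7.59 and 9.17 in controls 1 to 4 and 10.24, 10.10 and 9.89 in Trpm6-deficient 1 to 3. All 3 Trpm6-deficient livers lay above all 4 controls and close together, and the controls were spread, with control 3 lowest. The means were 8.55 ± 0.69 (SD, n = 4) and 10.08 ± 0.18 (SD, n = 3), a fold of 2.88 and a change of 1.52 (standard error 0.37, 95% interval 0.64 to 2.41, adjusted p = 0.429 from limma). With each liver left out in turn the change lay between 1.20 (without control 3) and 1.73 (without control 4), each time at the nominal limit. Pdk2, the constitutive kinase, read 10.73 to 11.53 in controls and 11.10 to 11.47 in Trpm6-deficient livers, with a change of 0.07 (95% interval -0.40 to 0.54).

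Beside the 36 genes, 92 others of the same pathways were listed, of which 83 were measured, and none was called. The nominal limit was met by 18, or 21.7%, of which 12 were higher and 6 lower, beside 6.87% of all probe sets (3.85% higher and 3.03% lower). The kinase Pdk1, a relative of Pdk4, read 9.85, 9.83, 9.73 and 9.52 in controls 1 to 4 and 10.53, 10.09 and 10.25 in Trpm6-deficient 1 to 3. Its groups did not overlap either, with a change of 0.56 ± 0.13 (limma standard error) and an adjusted p of 0.397. Pdk3 changed by 0.04. On the other side of the same switch, the phosphatase gene Pdp1 was 0.26 higher at the nominal limit and Pdp2 differed by -0.32 without passing it. Of the subunits of the complex, Pdha1 and Dlat were each 0.21 higher at this limit, whereas Pdhb (-0.30), Pdhx (-0.18) and Dld (0.08) did not pass it. Mpc1, a subunit of the carrier that brings pyruvate into mitochondria, was 0.25 higher at this limit.

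**Figure D2:**
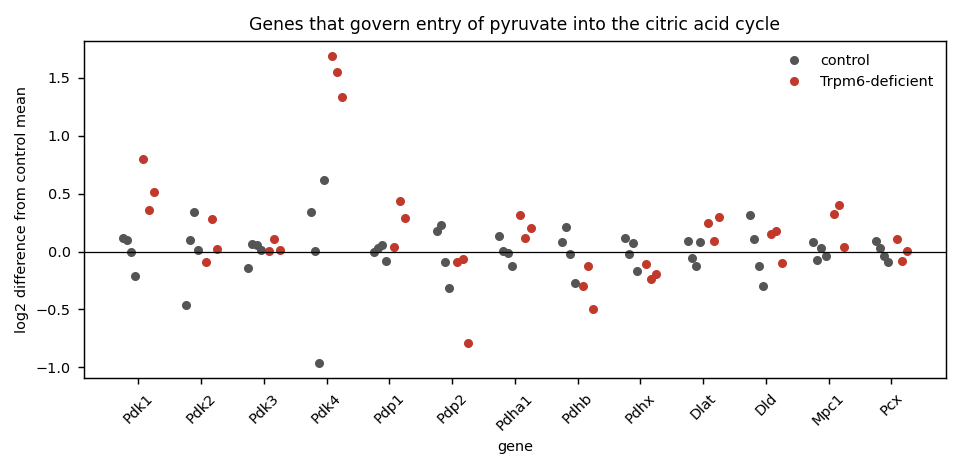
Log2 difference of each liver from the control mean (y axis) for 13 genes at the entry of pyruvate into the citric acid cycle (x axis), with 4 control and 3 Trpm6-deficient points each. The Trpm6-deficient points of Pdk4 and Pdk1 all lie above the controls; those of Pdk2, Pdk3 and Pcx overlap them.

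Of 30 measured other genes of glycolysis and sugar entry 9 were higher and none lower at the same limit. This was 30% of the list, beside 6.87% of all probe sets (3.85% higher and 3.03% lower). The 9 genes were the 5 named above, Pdk1, Pdp1, Pdha1, Dlat and Mpc1, and 4 more. Gckr, the regulatory protein of glucokinase, was 0.31 higher (adjusted p = 0.641 from limma). Pfkp, the platelet phosphofructokinase, was 0.35 higher (adjusted p = 0.437 from limma). Its level was low, 6.20 to 6.46 in controls and 6.65 to 6.72 in Trpm6-deficient livers, near the array medians of 6.43 to 6.48. Slc2a9, a transporter of urate and sugars, was 0.35 higher (adjusted p = 0.481 from limma). The groups did not overlap for Gckr, Pfkp and Slc2a9. They overlapped for Aldoc, the aldolase of brain, which was 0.42 higher (adjusted p = 0.720). Pfkp, Pdk1 and Slc2a9 stayed at the nominal limit with each of the 7 livers left out, and Gckr with 5 of the 7. Mlxipl, the carbohydrate response factor, changed by 0.10.

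Of the 11 genes of gluconeogenesis 1, the regulator Ppargc1a, was at the nominal limit and none of the enzymes was. This was 9.09% of the list, beside 6.87% of all probe sets. Pcx, pyruvate carboxylase, which starts the pathway, read 12.25, 12.19, 12.12 and 12.07 in controls 1 to 4 and 12.27, 12.08 and 12.16 in Trpm6-deficient 1 to 3. The groups overlapped, with a change of 0.01 (95% interval -0.15 to 0.18). Pck1, the cytosolic phosphoenolpyruvate carboxykinase, read 13.65, 13.48, 13.61 and 13.48 in controls 1 to 4 and 13.75, 13.10 and 13.32 in Trpm6-deficient 1 to 3. Trpm6-deficient 1 was the highest liver and the other Trpm6-deficient livers were the lowest, for a change of -0.16 (95% interval -0.53 to 0.20, adjusted p = 0.882 from limma). Without Trpm6-deficient 1 the change was -0.34, at the nominal limit but not called. Fbp1, fructose bisphosphatase, read 13.57, 13.79, 13.76 and 13.73 in controls 1 to 4 and 13.76, 13.77 and 13.89 in Trpm6-deficient 1 to 3. Control 1 was lowest and Trpm6-deficient 3 highest, with a change of 0.09 (95% interval -0.07 to 0.26). G6pc, the glucose 6-phosphatase that releases free glucose, read 13.97, 13.33, 13.60 and 13.74 in controls 1 to 4 and 13.75, 13.49 and 13.68 in Trpm6-deficient 1 to 3. The Trpm6-deficient livers lay inside the range of the controls, with a change of -0.02 (95% interval -0.39 to 0.35). Slc2a2, the glucose transporter of hepatocytes, read 11.81, 11.89, 12.06 and 11.74 in controls 1 to 4 and 12.16, 11.83 and 12.38 in Trpm6-deficient 1 to 3. Trpm6-deficient 1 and 3 lay above the controls and Trpm6-deficient 2 among them (change 0.25, 95% interval -0.09 to 0.59, adjusted p = 0.831 from limma). Without Trpm6-deficient 2 the change was 0.39, at the nominal limit, and without Trpm6-deficient 3 it was 0.12.

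The gene of this pathway with the largest change was Ppargc1a, the coactivator PGC-1alpha, which glucagon induces in fasting and which raises the transcription of gluconeogenic and mitochondrial genes. It read 8.91, 9.18, 8.49 and 8.81 in controls 1 to 4 and 9.84, 9.25 and 10.28 in Trpm6-deficient 1 to 3. No Trpm6-deficient liver lay among the controls, although Trpm6-deficient 2 was only just above control 2. The means were 8.85 ± 0.28 (SD, n = 4) and 9.79 ± 0.52 (SD, n = 3), a fold of 1.92 and a change of 0.94 (standard error 0.27, 95% interval 0.30 to 1.59, adjusted p = 0.562 from limma). A second probe set of Ppargc1a read 7.99, 7.99, 6.82 and 7.34 in controls 1 to 4 and 8.42, 8.03 and 8.78 in Trpm6-deficient 1 to 3. It had the same order of Trpm6-deficient livers, again without overlap (change 0.88, standard error 0.34, adjusted p = 0.692 from limma). With each liver left out in turn the change of the brighter probe set lay between 0.70 (without Trpm6-deficient 3) and 1.21 (without Trpm6-deficient 2), each time at the nominal limit. The other 5 genes, Pck2, the glucose 6-phosphate translocase Slc37a4, Crtc2 and Creb1, which carry the glucagon signal to the genome, and the glucagon receptor Gcgr, changed by -0.09 to 0.09, and none was at the nominal limit.

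**Figure D3:**
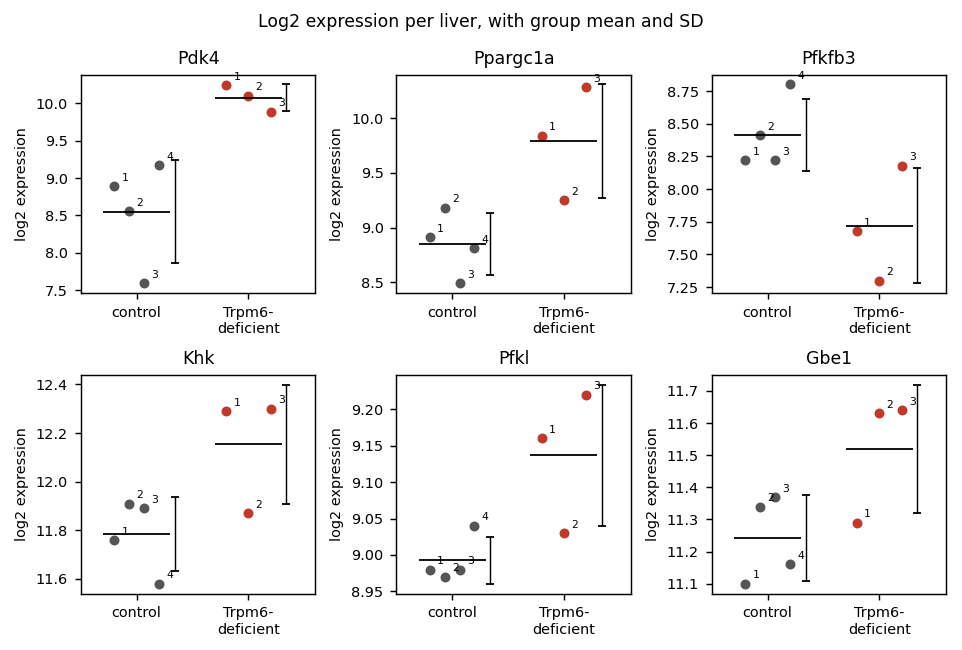
Log2 expression (y axis) in each of the 4 control and 3 Trpm6-deficient livers, numbered, for the 5 genes at the nominal limit and Gbe1, with the mean as a line and the SD as a bar. Each panel has its own scale that does not start at 0; the groups are apart for Pdk4, Ppargc1a and Pfkfb3 and overlap for Khk, Pfkl and Gbe1.

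Of 28 measured other genes of gluconeogenesis and its control 2 were higher and 4 lower at the nominal limit. Together they were 21.4% of the list, beside 6.87% of all probe sets (3.85% higher and 3.03% lower). Creb3l3, a liver transcription factor of the CREB family, read 10.79, 10.79, 10.80 and 10.79 in controls 1 to 4 and 10.41, 10.31 and 9.99 in Trpm6-deficient 1 to 3. The controls were within 0.01 of each other and every Trpm6-deficient liver lay below them (change -0.56, standard error 0.10, adjusted p = 0.261 from limma). Gpd1, the glycerol 3-phosphate dehydrogenase through which glycerol enters, changed by -0.33 (adjusted p = 0.540 from limma), and like Creb3l3 it stayed at this limit with each of the 7 livers left out. Cebpa, a factor of hepatocyte differentiation, changed by -0.42 and Stk11, the kinase LKB1, by -0.19, both at this limit. The transaminases Got1 (0.21) and Gpt (0.28), which turn amino acids into precursors, were the higher ones. Of other regulators, Foxo1 changed by 0.15, Klf15 by 0.12 and Hnf4a by 0.01, none at this limit.

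In glycogen metabolism no gene of 8 was at the nominal limit, beside 6.87% of all probe sets. Gys2, glycogen synthase of liver, read 11.30, 11.22, 11.52 and 11.18 in controls 1 to 4 and 11.48, 10.89 and 11.48 in Trpm6-deficient 1 to 3. Pygl, the phosphorylase that breaks glycogen down, read 12.12, 12.01, 11.73 and 11.72 in controls 1 to 4 and 12.06, 11.85 and 11.93 in Trpm6-deficient 1 to 3. For both the Trpm6-deficient livers overlapped the controls, with changes of -0.02 (95% interval -0.43 to 0.39) for Gys2 and 0.05 (95% interval -0.24 to 0.34) for Pygl. Gbe1, the branching enzyme, read 11.10, 11.34, 11.37 and 11.16 in controls 1 to 4 and 11.29, 11.63 and 11.64 in Trpm6-deficient 1 to 3. Trpm6-deficient 2 and 3 lay above all controls and Trpm6-deficient 1 among them. The change was 0.28 (standard error 0.11, adjusted p = 0.726 from limma), just short of the nominal limit, which it met without Trpm6-deficient 1 (0.39) and without control 3 (0.32). Ugp2, which makes the UDP-glucose from which glycogen is built, read 11.27, 11.18, 10.98 and 10.97 in controls 1 to 4 and 11.56, 11.25 and 11.27 in Trpm6-deficient 1 to 3. Trpm6-deficient 1 stood above the rest and the others met the top of the controls (change 0.26, 95% interval -0.01 to 0.53, adjusted p = 0.756 from limma). Phka2, a subunit of phosphorylase kinase, changed by 0.10 (95% interval -0.14 to 0.34).

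Among the 8 genes of glycogen, Ppp1r3c and Ppp1r3g, which encode proteins that target the phosphatase PP1 to glycogen, varied most from liver to liver. Ppp1r3b, the targeting subunit best known in liver, read 10.25, 10.00, 10.40 and 10.40 in controls 1 to 4 and 10.14, 10.02 and 10.59 in Trpm6-deficient 1 to 3. Ppp1r3c read 9.77, 9.53, 8.54 and 10.07 in controls 1 to 4 and 9.27, 10.01 and 10.02 in Trpm6-deficient 1 to 3. Ppp1r3g read 8.97, 8.15, 7.53 and 7.63 in controls 1 to 4 and 9.22, 7.38 and 7.48 in Trpm6-deficient 1 to 3. For Ppp1r3c control 3 was about a log2 unit below the next control, and for Ppp1r3g the first liver of each group stood above the others. The changes between groups were -0.01 (95% interval -0.41 to 0.39) for Ppp1r3b, 0.29 (95% interval -0.66 to 1.23) for Ppp1r3c and -0.04 (95% interval -1.39 to 1.30) for Ppp1r3g. The last interval is the widest of the 32 genes and admits a difference of more than a log2 unit either way. Of 25 measured other genes of glycogen and galactose metabolism 1 was higher and 2 lower at the nominal limit. Together they were 12% of the list, beside 6.87% of all probe sets (3.85% higher and 3.03% lower). Galt, which feeds galactose in, changed by 0.32, Phkg2, the catalytic subunit of phosphorylase kinase in liver, by -0.45, and Stbd1, a glycogen-binding protein, by -0.41.

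The livers differed in how many of the genes stood high. Trpm6-deficient 3 was the highest of the 7 livers for 14 of the 32 genes, 8 of them among the 13 of glycolysis, Trpm6-deficient 1 for 7, and Trpm6-deficient 2 for none. Against the control mean 22 of the 32 genes were higher in Trpm6-deficient 1, 16 in Trpm6-deficient 2 and 27 in Trpm6-deficient 3. The same count over all probe sets was not taken. The array median was also highest in Trpm6-deficient 3, at 6.48 beside 6.43 to 6.46 in the other livers. The median difference over the genes of glycolysis was 0.02, 0.02 and 0.20 in Trpm6-deficient 1 to 3. For gluconeogenesis it was 0.11, -0.07 and 0.09, and for glycogen 0.11, 0.05 and 0.17.

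**Figure D4:**
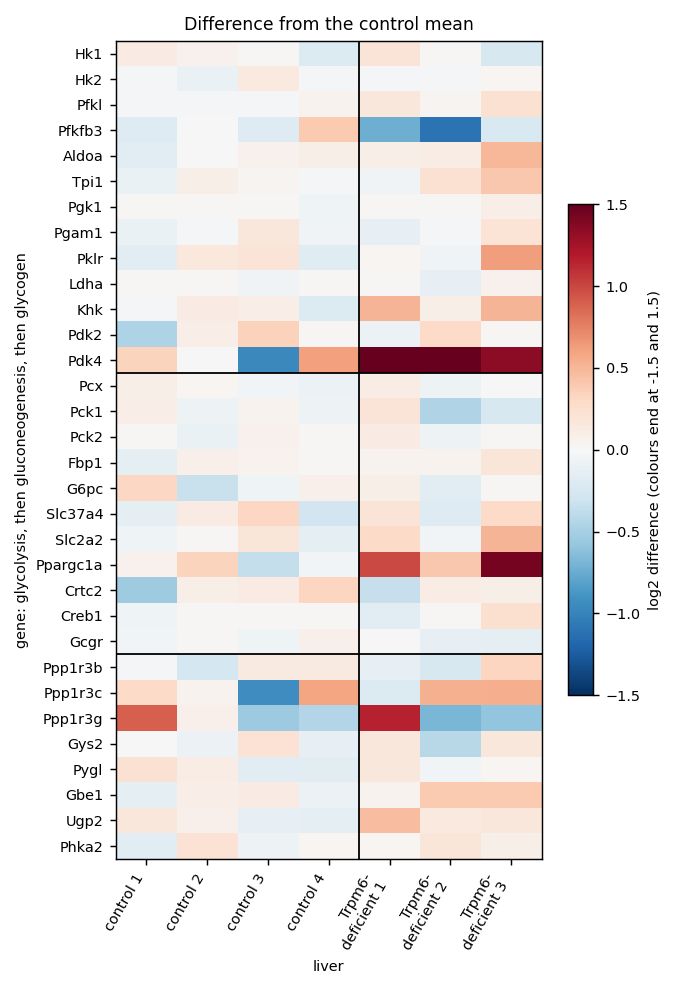
Log2 difference from the control mean for the 32 genes (rows, by pathway) in the 7 livers (columns); red is above and blue below the control mean, and the colours end at -1.5 and 1.5. Pdk4 and Ppargc1a are red in all 3 Trpm6-deficient livers and Pfkfb3 is blue, while Ppp1r3g is red in the first liver of each group.

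Transcripts of the circadian clock and of feeding were read beside these genes, because both states act on them. Of 24 measured transcripts none was called, and 5 were higher and 2 lower at the nominal limit, 29.2% in all beside 6.87% of all probe sets. Among 11 clock transcripts Cry1 was higher (change 0.56, adjusted p = 0.620 from limma) and Nr1d2 lower (change -0.88, adjusted p = 0.672 from limma). Each was at the nominal limit, and the groups overlapped for both. Arntl, the clock activator BMAL1, read 6.51 in control 3 and 8.54 to 8.79 in the other 6 livers. Dbp, a clock output that peaks in the opposite phase, read 10.38 in control 3, 8.64 in control 2 and 7.03 to 7.37 in the other 5. Control 3 was thus apart in both, and it was also the lowest liver for Pdk4, Ppargc1a and Ppp1r3c. Without control 3 the change of Pdk4 was 1.20, and that of Ppp1r3c was -0.02 instead of 0.29.

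Igfbp1, which insulin represses, read 12.57, 9.47, 9.65 and 10.43 in controls 1 to 4 and 12.71, 11.13 and 10.95 in Trpm6-deficient 1 to 3. Angptl4, a transcript of the fasted state, read 11.51, 10.78, 10.58 and 10.64 in controls 1 to 4 and 11.53, 9.85 and 9.84 in Trpm6-deficient 1 to 3. The first liver of each group was highest in both, as it was for Ppp1r3g. Among 5 measured transcripts of fasting, Cyp4a14, a fatty acid hydroxylase, was higher (change 2.88, adjusted p = 0.415 from limma) and Cpt1a, the carnitine palmitoyltransferase of liver, was lower (change -0.46, adjusted p = 0.432), each at the nominal limit. Among 8 transcripts of feeding all changes were positive, with a median of 0.64, and Srebf1 (0.66), Acaca (0.65) and Pnpla3 (0.66), genes of fatty acid synthesis and lipid droplets, were higher at that limit. The part of the clock and of feeding in the differences of Pdk4, Ppargc1a and Pfkfb3 was not tested.

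**Figure D5:**
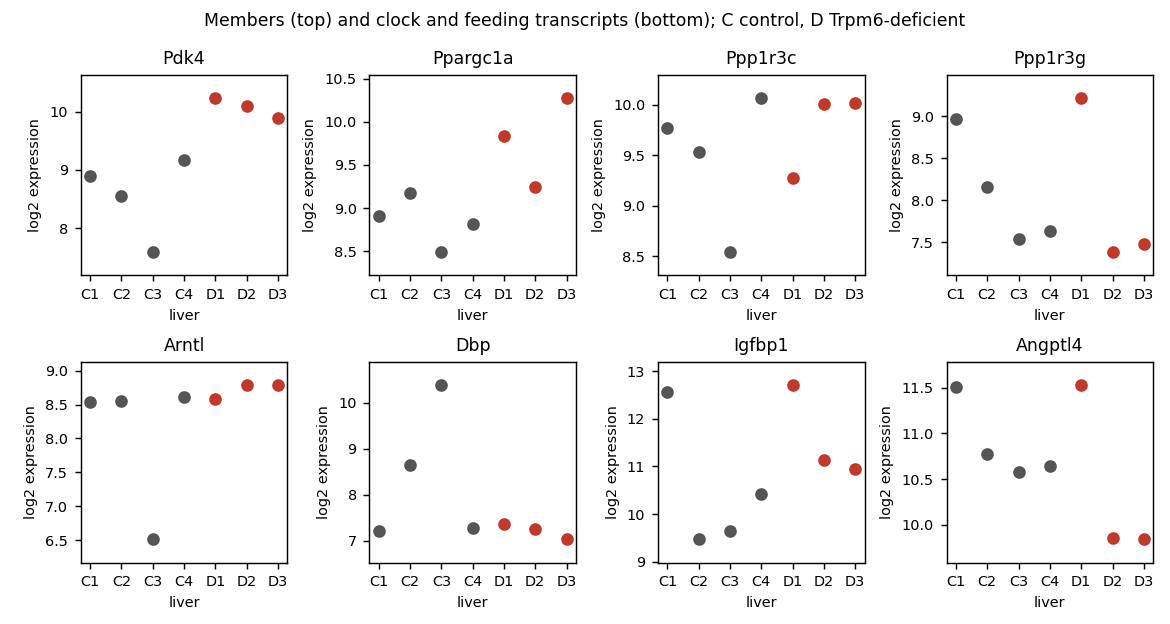
Log2 expression (y axis, own scale per panel) in each liver (x axis; C1 to C4 control, D1 to D3 Trpm6-deficient) of Pdk4, Ppargc1a, Ppp1r3c and Ppp1r3g above and of the clock and feeding transcripts Arntl, Dbp, Igfbp1 and Angptl4 below. C3 is lowest for Arntl, Pdk4, Ppargc1a and Ppp1r3c, and C1 and D1 are highest for Ppp1r3g, Igfbp1 and Angptl4.

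Of 57 measured markers of hepatocytes and other cell types none was called and 5, or 8.77%, were at the nominal limit, beside 6.87% of all probe sets. The erythroid marker Alas2 was lower, without overlap (change -1.655, adjusted p = 0.192 from limma). Slc4a1, the other erythroid marker measured, changed by -0.01. The 4 higher ones were Reln (0.30) and Des (0.28) of stellate cells, Krt19 (0.33) of bile duct and Asgr1 (0.23) of hepatocytes. The 8 markers of Kupffer cells and macrophages had a mean level of 8.34 to 9.27 in control and 8.64 to 8.81 in Trpm6-deficient livers, and 7 of the 8 changes were negative. All 8 changes of sinusoidal endothelial markers were negative, with a mean level of 8.81 to 9.82 in control and 9.04 to 9.50 in Trpm6-deficient livers. Control 1 was the lowest liver in both lists, and no marker of either list met the nominal limit. The 3 pancreas markers were highest in control 4, where Ctrb1, a pancreatic protease gene, read 8.07 against 6.24 to 6.58 elsewhere. Without control 4 Pdk4, Ppargc1a and Pfkl stayed at the nominal limit. Khk (0.30) and Pfkfb3 (-0.56), which was highest in control 4, did not. The part of other cell types in these values was not tested.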

How the data were processed

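Total RNA of 4 control and 3 Trpm6-deficient livers was labelled with biotin and hybridised to Affymetrix whole-transcript arrays. The authors processed the arrays with Affymetrix Expression Console 1.4.0, where RMA corrected the background, normalized the arrays and summarised the probes, and deposited log2 values with 2 decimals. Such values hold no counts, and precision is limited by there being only 7 arrays. RMA equalises the distributions of the arrays, so a shift of all transcripts would not be seen.

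All 35556 probe sets were fitted as deposited with limma 3.58.1 (lmFit and eBayes, R 4.3.3), without a covariate or a filter, and p was adjusted over all of them (Benjamini-Hochberg). A call needed an adjusted p of 0.1 or less, and genes with p of 0.05 or less before adjustment (the nominal limit) were counted too. The platform annotation gives 1 symbol to 21789 probe sets, several to 1621 and none to 12146. The script was tested on simulated data. The labels do not say whether a number is shared by littermates, and each array is a separate mouse.

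The members and all gene lists were chosen with earlier results of these data known. Values in every liver are given for genes at the nominal limit, the 3 largest changes of each pathway and 16 genes of the main control points, of which Pfkfb1 was not measured. Other pathway genes are named where they met the nominal limit, and a few that did not were chosen after their values were seen. In all, 19 alternatives were run. Promoter windows came from RefSeq (GRCm38.p6) and were used for sequence only.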

Additional observations from a re-analysis of the deposited data

Results flagged for a closer look

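In 7 cases 1 control liver lay far from the other 3 relative to the range of the group, among 74 values tested, of which chance flags about 1 in 20. Pfkl read 9.04 in control 4 and 8.97 to 8.98 in the other controls. Pgk1 read 12.09 in control 4 and 12.18 in the other controls. Ldha read 13.21 in control 3 and 13.27 to 13.28 in the others. Creb1 read 8.73 in control 1 and 8.81 in the others, and Creb3l3 read 10.80 in control 3 and 10.79 in the others. These 5 gaps are 0.09 or less. The remaining 2 gaps are larger and both lie in control 3: the clock gene Arntl read 6.51 there and 8.54 to 8.61 in the other controls, and Per3, another clock gene, read 8.41 there and 6.41 to 6.67 in the others.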

How the results depend on the processing

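None of the 32 genes was called under any of the 19 alternatives, and Pdk4 and Ppargc1a were higher in all of them. Several alternatives change only the test, the filter, the threshold or the Hk1 probe set, so the direction of both genes was fixed there. The stricter threshold could likewise add no call. Pdk4 was at the nominal limit in all 19 and Ppargc1a in all but the fit with the replicate number as a block. With each of the 7 livers left out in turn, Pfkfb3 and Khk stayed at that limit in 3 cases each and Pfkl in 2. In these fits the count at the limit was 2 to 3 for glycolysis, 1 to 2 for gluconeogenesis and 0 to 1 for glycogen. The median change lay between 0.053 and 0.14 for glycolysis, -0.0025 and 0.057 for gluconeogenesis, and 0.042 and 0.18 for glycogen. With the replicate block the counts were 2, 0 and 1 (9.27% of all probe sets): Pdk4, Aldoa and Gbe1 were at the limit, and Ppargc1a, Pfkfb3, Khk and Pfkl were not. The numbers were not taken to pair the mice, because the labels do not say what they stand for. The deviations of same-numbered livers correlated at 0.33, 0.26 and 0.088, and those of differently numbered livers at -0.25 to 0.23. Trpm6-deficient 3 correlated best with control 4 (0.23). Whether the numbers mark pairs is therefore not settled by these values. The count for glycogen was 1 with probe sets of a mean of 5 or more, after repeated quantile normalization and with array weights. Changes near 0 turned sign: Hk1 was 0.012 with age as a covariate, Pgam1 -0.010 and Pcx -0.011 after repeated quantile normalization, and with the block Pgam1 was -0.0033, Pcx -0.017, G6pc 0.0067, Slc37a4 -0.0033, Crtc2 0.060, Ppp1r3b 0.033 and Pygl -0.0067. With 1 liver left out 17 genes took both signs: Hk1 (-0.11 to 0.11), Hk2 (-0.040 to 0.043), Pgam1 (-0.077 to 0.087), Pklr (-0.010 to 0.33), Ldha (-0.052 to 0.043), Pdk2 (-0.080 to 0.19), Pcx (-0.037 to 0.058), Pck2 (-0.028 to 0.068), G6pc (-0.13 to 0.083), Slc37a4 (-0.0033 to 0.24), Crtc2 (-0.23 to 0.10), Creb1 (-0.075 to 0.13), Ppp1r3b (-0.18 to 0.10), Ppp1r3c (-0.023 to 0.54), Ppp1r3g (-0.64 to 0.28), Gys2 (-0.12 to 0.17) and Pygl (-0.0067 to 0.13). The cause was not tested. Hk1 from its RefSeq probe set, an alternative chosen after seeing the data, changed no count.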
